A study of Homo sapiens with 42 samples.

Results

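The mevalonate pathway turns acetyl-CoA into farnesyl diphosphate, and 7 of its enzymes are described here: ACAT2, HMGCS1, MVK, PMVK, MVD, IDI1 and FDPS. They were chosen by name as steps of that route and are 7 of the 60606 genes in the table. All 7 passed the filter of a mean of at least 1 TPM (transcript abundance scaled to the library's total and to transcript length) over the libraries, which 14426 genes passed, and only these were tested. The cells are AC16, a human line labelled cardiomyocyte-like. Every group was given doxycycline at 1 µg/ml and carried an inducible hairpin. The shScramble group had a scrambled hairpin, and shRPL3 had a hairpin against RPL3, which encodes part of the large ribosomal subunit. The other 8 groups carried the RPL3 hairpin and in addition a lentiviral construct for RPL3L, the paralog of RPL3 found mainly in heart and skeletal muscle, in cells sorted for the fluorescence of the construct. RPL3L was wild type (RPL3L-WT) or held 1 of the variants G27D, R161W, T189M, P291L, D308N, D308V and R343W. The labels of P291L alone also call the variant inducible by doxycycline. Each group had 3 polyA RNA libraries from whole cells, 30 in all.

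The design asked what lowering RPL3 did, what adding RPL3L did on top of it, and where the variants differed from wild-type RPL3L. No group carried the construct without RPL3L. Against shRPL3 or shScramble, RPL3L therefore cannot be told apart from the rest of the construct and the sorting. The labels do not say that the 3 libraries of a group came from separate cultures, so p-values measure only the spread between these samples. TPM keep no depth, so the depth behind each value is unknown. RPL3 itself was at 1565, 1534 and 1611 TPM in shScramble and at 539, 499.6 and 569.8 TPM in shRPL3, as labelled. The third shRPL3 library also held 121 TPM of RPL3L and 434 TPM of the construct's EBFP2, although its label names no construct. Markers of beating heart muscle were nearly absent: MYH6, MYH7, TNNT2, TNNI3, ACTN2, MYL2 and NPPA summed to 0.0974 to 1.89 TPM per library, with MYL2 and NPPA at 0 in 28 of 30. VIM, COL1A1, COL1A2, THY1 and S100A4, markers of mesenchymal cells, summed to 3880 to 5740 TPM. The hepatocyte markers ALB, APOA1 and TTR summed to 0 to 0.647 TPM. Of the macrophage markers PTPRC, CD68 and CSF1R, CD68 held 62.2 to 248 TPM and PTPRC at most 0.802 TPM.

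The libraries were of 2 kinds that no label names. Along the first principal component of 334 pseudogenes, 6 libraries stood apart by a gap of 14.03, against 2.0 for the next widest gap: library 3 of G27D, library 1 of R161W, and libraries 1 and 2 of both RPL3L-WT and T189M. They are called the second kind here and the other 24 the first kind. All 7 members were lower in the second kind once group was accounted for, by a median log2 difference of -0.24 over members and -0.15 over all genes tested. At an adjusted p under 0.05 (limma) all 7 passed. Of the 14426 genes tested, 6250 were lower by the same test and 2094 higher. Counts of members called in comparisons with such libraries are therefore given pooled and again within kinds. Within kinds means with the kind as a term in the model. Unless stated otherwise, other values pool the kinds, including group levels, their order, percents of shScramble and correlations over groups.

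As background, the pathway makes the isoprenoid building blocks of sterols, dolichol, ubiquinone and the lipid anchors of prenylated proteins. ACAT2 joins a pair of acetyl-CoA molecules in the cytosol and HMGCS1 adds another to give HMG-CoA. MVK and PMVK phosphorylate mevalonate in turn, and MVD removes carbon dioxide to give isopentenyl diphosphate. IDI1 isomerises that to dimethylallyl diphosphate, and FDPS condenses the isomers into farnesyl diphosphate, from which the sterol branch and the non-sterol branches depart. Transcription of most of these genes is known to be raised by SREBP2, the product of SREBF2, when membrane sterol is low, and SREBP proteins are known to act on promoters together with NF-Y, which binds CCAAT, and Sp1, which binds GGGCGG.

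The start regions of the members differed in how many CCAAT boxes they held. Windows of 300 bases around the start site (250 before and 50 after) came from RefSeq on GRCh38.p14 and matched 6 of the 7 members. CCAAT was searched on both strands (ATTGG on the other). The single windows of MVK, MVD and FDPS held 5, 3 and 3 matches, and HMGCS1 held 2 in the first of its 2 windows and 0 in the second. IDI1 has 3 windows, with 0, 3 and 2 matches, of which the last pair overlap each other. PMVK held 0 in its window. Among the 34796 windows of all genes, 34.6% held at least 1 CCAAT, 10.8% at least 2 and 3.25% at least 3. Among the 14672 windows of genes tested, these shares were 35.0%, 12.5% and 4.54%. GGGCGG was found for all 6 members with a window, in 44.9% of all windows and in 66.3% of the windows of genes tested. The core of the sterol element, CACNCCAC, was found in 1 window of IDI1, in 5.86% of all windows and in 5.75% of the windows of genes tested. A match is only a description of the letters, and no match says nothing of a factor's binding. IDI1, with 3 windows, is not printed. The sequences that follow are of HMGCS1, MVD and FDPS, chosen by having 1 or 2 windows and not by their matches or their fall. They hold 1 of the 2 matches of HMGCS1, all 3 of MVD and 1 of the 3 of FDPS. Each is the stretch upstream of the RefSeq start that lies outside exons of protein-coding genes in GENCODE 29, 5′ to 3′ on the gene's strand, with CCAAT or ATTGG in capitals. The 250 bases before the RefSeq starts of MVK and PMVK lie wholly inside such exons and are not printed. Both windows also lie inside the GENCODE 29 bounds of their own gene, so their counts are not from sequence upstream of the GENCODE start.

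HMGCS1 chr5:43313513-43313662 (- strand): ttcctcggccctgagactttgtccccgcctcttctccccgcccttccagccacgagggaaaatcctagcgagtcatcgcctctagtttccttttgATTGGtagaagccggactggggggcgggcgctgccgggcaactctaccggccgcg
MVD chr16:88663162-88663341 (- strand): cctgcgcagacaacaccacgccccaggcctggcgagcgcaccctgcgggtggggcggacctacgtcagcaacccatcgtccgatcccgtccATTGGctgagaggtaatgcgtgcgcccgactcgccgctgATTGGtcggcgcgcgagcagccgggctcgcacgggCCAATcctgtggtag
FDPS chr1:155308616-155308747 (+ strand): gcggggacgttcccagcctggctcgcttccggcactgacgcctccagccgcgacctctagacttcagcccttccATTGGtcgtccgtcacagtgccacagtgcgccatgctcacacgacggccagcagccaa

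MVK and MVD each share their start region with a gene on the other strand. In GENCODE 29 (GRCh38) the plus strand carries ACAT2 on chromosome 6 at 159760328 to 159779055, MVK on chromosome 12 at 109573255 to 109598117 and FDPS on chromosome 1 at 155308748 to 155320666. The minus strand carries HMGCS1 on chromosome 5 at 43289395 to 43313512, PMVK on chromosome 1 at 154924734 to 154936991, MVD on chromosome 16 at 88651935 to 88663161 and IDI1 on chromosome 10 at 1039152 to 1049170. The MVK window overlaps that of MMAB, an enzyme of cobalamin metabolism, by 211 bases, and the MVD window overlaps that of SNAI3-AS1, a non-coding RNA, by 219 bases. In shRPL3 against shScramble, MMAB fell by a log2 fold change of -1.45 (95% confidence interval -1.63 to -1.28, adjusted p = 1.18e-11) and SNAI3-AS1 by -1.68 (95% confidence interval -2.02 to -1.33, adjusted p = 4.17e-08). Exons overlap too, and whether counting used strand is not given in the sources used here, so reads from opposite strands cannot be told apart. ACAT2 shares 1141 of its 4299 exonic bases with SOD2 and 397 with TCP1, and MVK shares 306 of 6480 with MMAB. SOD2 (0.59, adjusted p = 0.00259) and TCP1 (0.33, adjusted p = 0.0125) rose where ACAT2 fell.

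Under the scrambled hairpin the pathway was strongly expressed and uneven. FDPS was the most abundant member at 766 ± 24.3 TPM (SD, n = 3 libraries here and below), followed by HMGCS1 at 465 ± 11.0 TPM and ACAT2 at 427 ± 17.2 TPM. IDI1 and MVD stood close together at 216 ± 10.5 TPM and 212 ± 15.5 TPM. The pair of kinases were the least abundant, MVK at 72.7 ± 7.82 TPM and PMVK at 54.5 ± 0.23 TPM, and PMVK was the lowest of the 7 in each of the 3 shScramble libraries. TPM are scaled by transcript length, so these levels may be compared between genes. The order changed with the groups. In all 3 libraries of D308N and of D308V, PMVK came next after FDPS and ACAT2 and stood above HMGCS1.

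**Figure D1:**
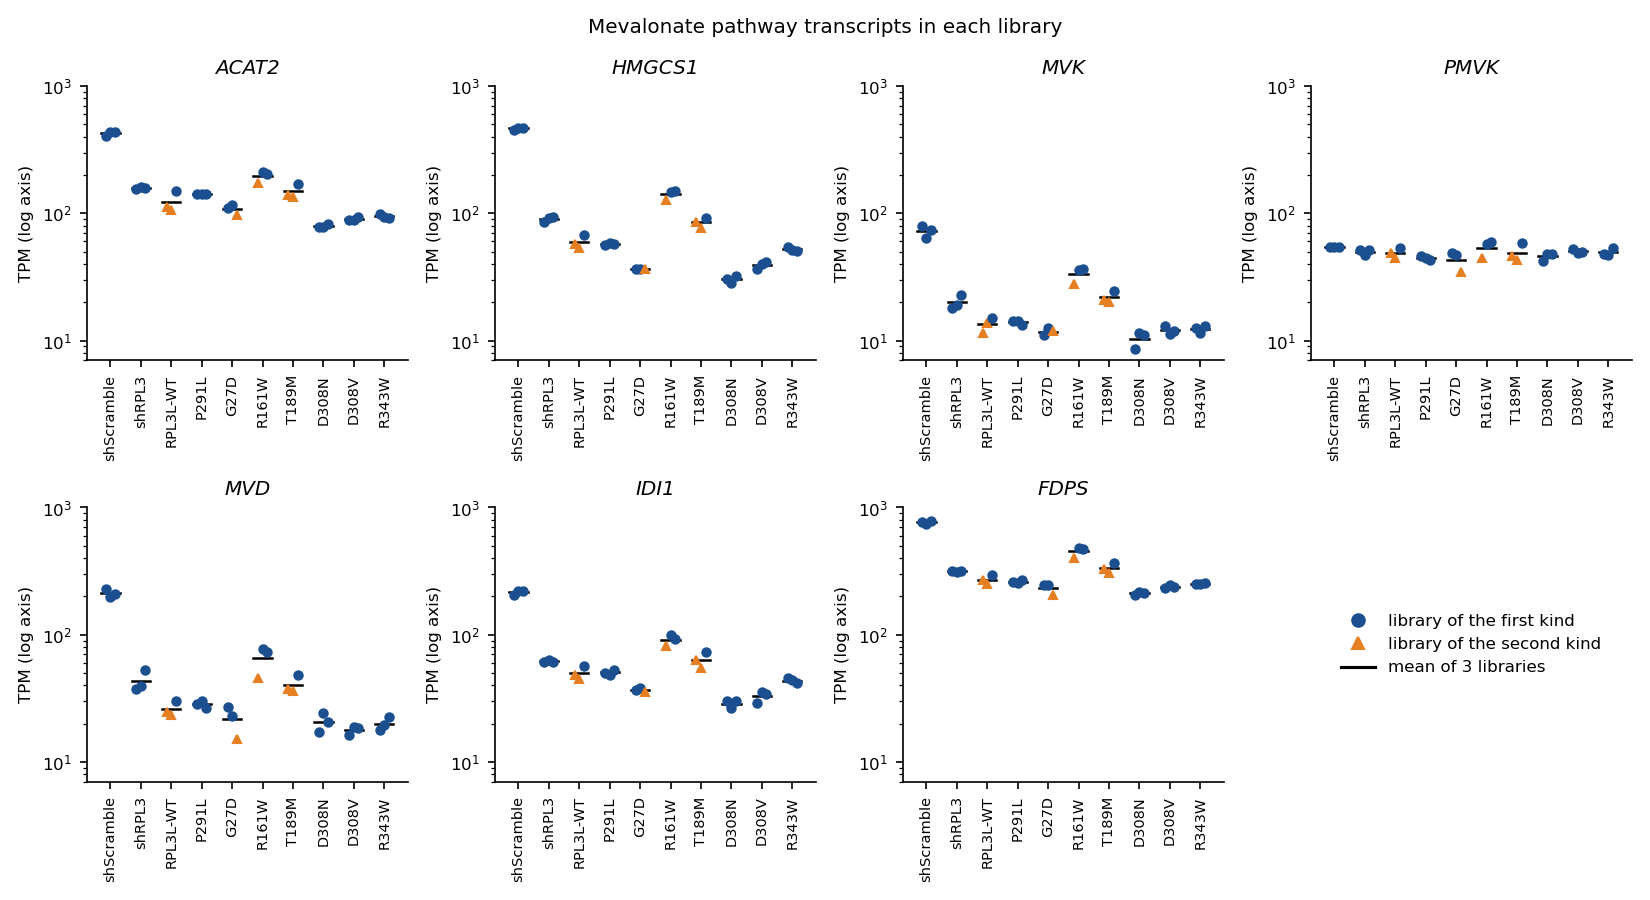
TPM (log axis) of the 7 enzymes in each of the 30 libraries, by group; circles are libraries of the first kind, triangles the 6 of the second kind, and lines are means of 3 libraries. Apart from PMVK, every member has its 3 shScramble libraries above all 27 others, and R161W is the next highest group by its mean.

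With the RPL3 hairpin, 6 of the 7 transcripts were lower and PMVK was not called, a call here being an adjusted p under 0.05. In shRPL3 against shScramble, ACAT2, HMGCS1, MVK, MVD, IDI1 and FDPS fell past that threshold (limma, Benjamini-Hochberg over all genes tested), with 18.0% of all genes tested lower by the same test. The median log2 fold change of the 7 was -1.78, against -0.01 over all genes tested. All fold changes were taken from log2(TPM + 1), so those of genes at low TPM come out too small. In these bulk libraries, fewer cells of a type and less RNA per cell cannot be told apart. Neither group holds libraries of the second kind. Markers of other cell types moved as well: of the 5 mesenchymal markers COL1A2, VIM, THY1 and S100A4 fell and COL1A1 rose, and their sum was 4780 to 5280 TPM in shScramble and 4550 to 4890 TPM in shRPL3. The 3 macrophage markers summed to 118 to 135 TPM and 64.3 to 69.1 TPM, nearly all of it CD68, with PTPRC near 0. The part of these markers and of the level of RPL3 itself in the members' values was not tested.

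The first steps fell unequally. HMGCS1 was at 452, 471 and 472 TPM in shScramble and at 85.4, 91.4 and 93.1 TPM in shRPL3. The groups were far apart, and its log2 fold change of -2.36 (95% confidence interval -2.52 to -2.19, adjusted p = 2.98e-16) was the largest fall of the 7. ACAT2 stood at 407, 436 and 437 TPM and at 155, 160.4 and 158 TPM, again with no overlap. Its log2 fold change was -1.43 (95% confidence interval -1.64 to -1.22, adjusted p = 1.77e-10). Expressed as a share of the shScramble mean, HMGCS1 kept 19.4% and ACAT2 37.0%.

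The 2 mevalonate kinases parted. MVK was at 79.6, 64.2 and 74.2 TPM in shScramble and at 18.1, 19.0 and 22.9 TPM in shRPL3. It fell by a log2 fold change of -1.81 (95% confidence interval -2.06 to -1.56, adjusted p = 7.23e-11). PMVK, which acts on the product of MVK, was at 54.8, 54.4 and 54.3 TPM and at 51.2, 46.9 and 51.7 TPM. All 3 shRPL3 libraries of PMVK lay below the 3 of shScramble, but the log2 fold change was -0.12 with a 95% confidence interval of -0.37 to 0.12 and an adjusted p of 0.452. The interval does not overlap those of the other 6, the closest of which ended at -1.12. The difference between PMVK and another member was not tested as such.

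The last 3 steps fell as well. MVD was at 228, 197 and 211 TPM in shScramble and at 37.4, 39.5 and 52.8 TPM in shRPL3, a change on the log2 scale of -2.28 (95% confidence interval -2.67 to -1.89, adjusted p = 2.88e-09). Library 3 of shRPL3, the one with RPL3L reads, was the highest of its group, as it was for HMGCS1, MVK and PMVK. IDI1 was at 204, 222 and 222 TPM and at 61.6, 63.5 and 60.8 TPM, a log2 fold change of -1.78 (95% confidence interval -1.98 to -1.58, adjusted p = 2.64e-12). FDPS was at 771, 739.9 and 788 TPM and at 314, 314 and 316 TPM, a log2 fold change of -1.28 (95% confidence interval -1.44 to -1.12, adjusted p = 1.99e-11). FDPS, the most abundant member, had the smallest fall of the 6 and kept 41.1% of its shScramble mean.

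The other 8 groups, all with the RPL3 hairpin, were also below shScramble for the same 6 enzymes. The comparisons share the shScramble libraries, so they are not independent. ACAT2, HMGCS1, MVK, MVD, IDI1 and FDPS were lower past the threshold in each of the 8. Median log2 fold changes of the 7 members were -2.09 in RPL3L-WT (34.6% of all genes tested lower), -2.07 in P291L (25.2%), -2.52 in G27D (30.3%) and -1.13 in R161W (16.3%). For R343W the median was -2.28 (24.5% lower), for T189M -1.69 (28.5%), for D308V -2.50 (27.9%) and for D308N -2.71 (27.3%). The background in these comparisons is thus large, while the medians over all genes tested lay between -0.18 and -0.05. PMVK was called in G27D only, at -0.34 (95% confidence interval -0.59 to -0.10, adjusted p = 0.0229), where 1 library of the second kind was at 34.3 TPM and the others at 48.7 and 46.9 TPM. With median-ratio scaling PMVK was not called there (-0.18, adjusted p = 0.0971). Within kinds, PMVK passed in P291L (-0.29), G27D (-0.22) and D308N (-0.25), and the other 6 passed in all 9 comparisons. The shares of all genes tested that were lower within kinds were 24.5% in shRPL3, 29.1% in RPL3L-WT, 33.3% in P291L, 32.9% in G27D and 20.4% in R161W. They were 31.5% in R343W, 21.7% in T189M, 34.4% in D308V and 33.7% in D308N.

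Leaving PMVK aside, the 6 enzymes were lowered to different depths in each group. As a percent of their own shScramble means, the 6 ranged from 19.4 to 41.1 in shRPL3, 12.3 to 35.4 in RPL3L-WT, 12.4 to 34.1 in P291L and 7.85 to 30.3 in G27D. They ranged from 30.4 to 59.0 in R161W, 9.45 to 32.7 in R343W, 18.3 to 43.5 in T189M, 8.42 to 31.2 in D308V and 6.53 to 27.6 in D308N. FDPS kept the largest share in all 9 groups, and HMGCS1 or MVD the smallest. PMVK kept 79.5 to 98.3%. Across the 10 group means, Pearson's r between pairs of the 6 was 0.97 to 1.0 (15 pairs), and 0.91 to 0.99 over the 9 groups without shScramble. For PMVK with each of the 6 it was 0.64 to 0.77, and 0.41 to 0.69 without shScramble. These are descriptions over groups that share a cell line and the table's scaling.

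**Figure D2:**
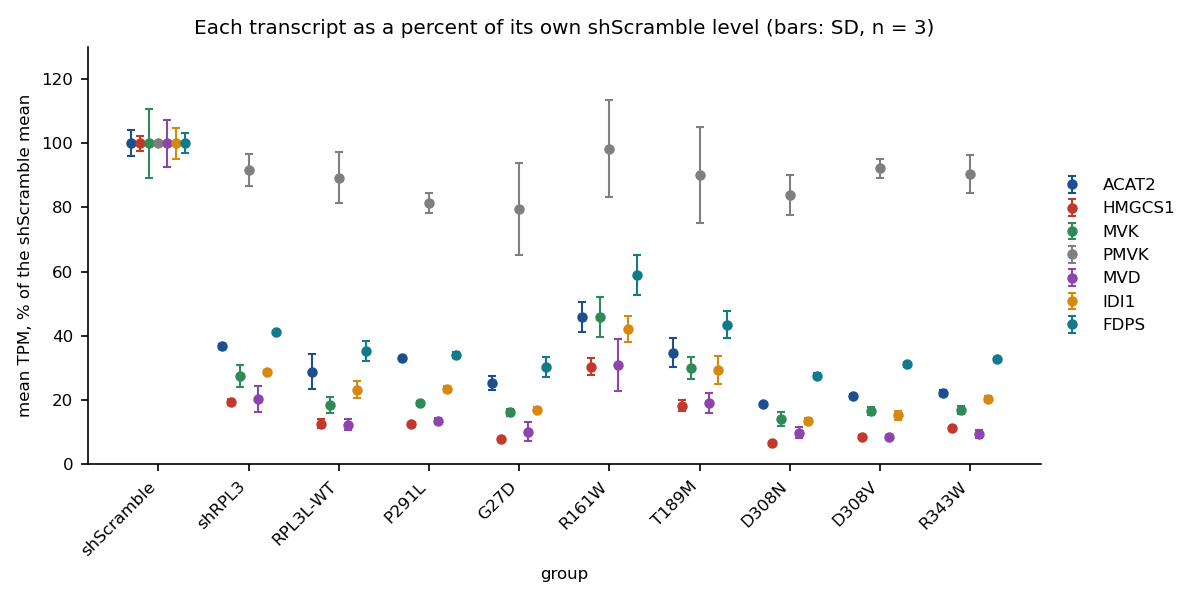
Mean TPM of each enzyme as a percent of its own shScramble mean, by group, with bars for the SD of 3 libraries. PMVK stays between 79.5 and 98.3%, while the other 6 lie between 6.53 and 59.0% in the 9 groups with the RPL3 hairpin.

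The order of the groups was much the same for each of the 6. shScramble was highest and R161W second by the mean for all 7 members, and the 3 R161W libraries lay above those of the next group for ACAT2, HMGCS1, MVK, IDI1 and FDPS. How many of all genes tested were separated in this way was not counted. For MVD and PMVK the ranges of R161W and the group below it overlapped. With median-ratio scaling these top groups held for 6 of the 7 members. T189M and shRPL3 followed for the 6 in ranks 3 and 4, with ranges that overlapped each other for all 6. This order pools the kinds. The only first-kind library of T189M lay above all shRPL3 libraries for ACAT2, MVK, IDI1 and FDPS, and inside their range for HMGCS1 and MVD. At the low end, D308N was last for ACAT2, HMGCS1, MVK, IDI1 and FDPS, D308V was last for MVD, and G27D for PMVK. HMGCS1 separated the groups most finely: P291L, R343W, D308V, G27D and D308N followed one another with no overlap of libraries, at 57.6 ± 1.31 TPM, 51.9 ± 1.96 TPM, 39.5 ± 2.50 TPM, 36.5 ± 0.097 TPM and 30.4 ± 1.80 TPM. D308V and G27D nearly touched, at a lowest of 36.77 TPM and a highest of 36.60 TPM, and were not compared by a test. With median-ratio scaling their HMGCS1 means were 39.0 and 38.1. For PMVK the libraries of every group overlapped those of the next group in the order.

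With wild-type RPL3L added to the RPL3 hairpin, most members were lower than with the hairpin alone when the kinds were pooled. In RPL3L-WT against shRPL3, all members but PMVK were lower past the threshold, with 30.2% of all genes tested lower and a median of -0.37 over members against -0.19 over all genes. HMGCS1 was at 57.0, 53.2 and 67.0 TPM, below the shRPL3 libraries given above, a log2 fold change of -0.60 (95% confidence interval -0.77 to -0.44, adjusted p = 9.28e-06). ACAT2 was at 113, 107 and 151 TPM, MVK at 11.5, 13.8 and 15.0 TPM and MVD at 24.7, 23.4 and 30.1 TPM. The third library, the only RPL3L-WT library of the first kind, was the highest for all of these. FDPS was at 268, 248 and 296 TPM and IDI1 at 48.7, 45.2 and 56.3 TPM. The size of the fall and the number of members called depended on how the kinds were treated. Within kinds the median over members was -0.16, against -0.10 over all genes, and with the first kind alone -0.13 against -0.08. Within kinds, ACAT2 (-0.16, adjusted p = 0.0168), HMGCS1 (-0.49, adjusted p = 6.51e-06) and MVK (-0.40, adjusted p = 0.0124) were lower, with 20.1% of all genes lower, and PMVK was higher (0.20, adjusted p = 0.0355), with 6.27% of all genes higher. FDPS had -0.06 (95% confidence interval -0.14 to 0.02, adjusted p = 0.238). With median-ratio scaling, which shifts this comparison because the median gene was at -0.19, FDPS was at 0.00 and HMGCS1, MVK and MVD stayed past the threshold (11.8% of all genes lower). With libraries of the first kind alone, HMGCS1 was the member that stayed (9.96% of all genes lower). Without RPL3L-WT library 2 the count was 3 (16.0%).

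R161W was the group in which the pathway was higher than with the RPL3 hairpin alone. ACAT2, HMGCS1, MVK, MVD, IDI1 and FDPS rose in R161W against shRPL3, with 8.36% of all genes tested higher and a median of 0.54 over members against -0.08 over all genes. With 1 library left out, 4 to 6 members passed. HMGCS1 was at 127, 147 and 149 TPM, a log2 fold change of 0.64 (95% confidence interval 0.48 to 0.80, adjusted p = 2.81e-06). MVK was at 28.0, 35.6 and 36.4 TPM, the largest rise at 0.71 (95% confidence interval 0.46 to 0.96, adjusted p = 0.000138). In both genes every R161W library was above every shRPL3 library, and the lowest was the library of the second kind. MVD was at 45.8, 77.7 and 73.4 TPM (0.57, adjusted p = 0.0301), with 1 library inside the shRPL3 range. ACAT2 was at 173, 212 and 202 TPM (0.30, adjusted p = 0.028) and IDI1 at 81.8, 98.8 and 92.0 TPM (0.54, adjusted p = 0.000213). FDPS was at 398, 482 and 476 TPM (0.52, adjusted p = 3.8e-05). For these 3 genes too, the R161W and shRPL3 libraries did not overlap. Within kinds all 7 were higher, PMVK by 0.21 (95% confidence interval 0.08 to 0.34, adjusted p = 0.013), with 14.3% of all genes higher. RPL3 itself was also higher in R161W, at 1059, 1686 and 1570.1 TPM, against 499.6 to 569.8 TPM in shRPL3. Libraries 2 and 3 of R161W, of the first kind, were not below the shScramble range of 1534 to 1611 TPM. The part of RPL3 in these values was not tested.

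T189M lay close to shRPL3 when the kinds were pooled. The median was -0.04 over members and -0.14 over all genes. None of the 7 was called in T189M against shRPL3, where 25.5% of all genes tested were lower, and the log2 fold changes ran from -0.10 for ACAT2 to 0.12 for MVK. The interval for HMGCS1 was -0.25 to 0.08 and that for FDPS -0.08 to 0.24. At an unadjusted p under 0.05 the count was also 0. HMGCS1 was at 86.1, 77.1 and 91.6 TPM and FDPS at 326, 306 and 368 TPM, the third library being the only one of the first kind and the highest in both. Within kinds FDPS (0.24, adjusted p = 3.36e-05) and PMVK (0.20, adjusted p = 0.0291) were higher, with 10.8% of all genes higher. All 7 members were then at or above 0.03, with a median of 0.20 against -0.05 over all genes. With median-ratio scaling the medians were 0.12 and 0.01. RPL3 in these libraries was at 779.7, 802 and 1246 TPM, between its shRPL3 and shScramble levels.

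D308N and D308V were below shRPL3 for the same 6 members. In D308N against shRPL3, the 6 members other than PMVK fell, with 12.4% of all genes tested lower and a median of -0.98 against -0.05 over all genes. HMGCS1 was at 30.5, 28.5 and 32.1 TPM, a log2 fold change of -1.54 (95% confidence interval -1.70 to -1.38, adjusted p = 4.82e-12), and ACAT2 at 78.3, 78.5 and 82.0 TPM, a log2 fold change of -0.98 (95% confidence interval -1.18 to -0.77, adjusted p = 2.61e-07). Neither overlapped shRPL3. IDI1 was at 30.0, 26.3 and 30.1 TPM (-1.08), MVD at 17.3, 24.4 and 20.5 TPM (-1.02), MVK at 8.51, 11.4 and 11.0 TPM (-0.89) and FDPS at 205, 215 and 214 TPM (-0.57). In D308V against shRPL3 the same 6 fell, with 11.1% of all genes lower. HMGCS1 was at 36.8, 39.9 and 41.7 TPM (-1.17, adjusted p = 3.33e-10) and MVD at 16.2, 18.8 and 18.5 TPM (-1.22, adjusted p = 8.23e-05). RPL3 was no lower in these groups than in shRPL3, at 695 ± 17.5 TPM in D308N and 569.5 ± 1.42 TPM in D308V. All libraries of shRPL3, D308N and D308V are of the first kind, and the fit within kinds called the same members, with 22.2% and 22.4% of all genes lower.

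G27D, R343W and P291L were below shRPL3 for 5 or 6 members. G27D against shRPL3 had 6 members lower (15.0% of all genes tested), led by HMGCS1 at 36.6, 36.4 and 36.5 TPM (-1.28, 95% confidence interval -1.44 to -1.12, adjusted p = 2.58e-10), and the same 6 within kinds (20.5%). R343W against shRPL3 also had 6 lower (12.4%, and 22.8% within kinds), with MVD at 17.9, 19.6 and 22.6 TPM (-1.06, adjusted p = 0.000264) and HMGCS1 at 54.1, 51.5 and 50.2 TPM (-0.78, adjusted p = 1.18e-07). P291L against shRPL3 had 5 lower (15.0%), all but ACAT2 (-0.16, adjusted p = 0.295) and PMVK. HMGCS1 was at 56.3, 58.9 and 57.6 TPM there (-0.63, adjusted p = 3.8e-06). Within kinds all 7 were lower in P291L (27.3% of all genes), with PMVK at -0.17. The P291L count was the least steady of these: it was 3 without shRPL3 library 2 (9.79% of all genes lower) or 3 (11.3%) or without P291L library 1 (10.7%) or 3 (11.0%), and 2 without P291L library 2 (9.6%).

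**Figure D3:**
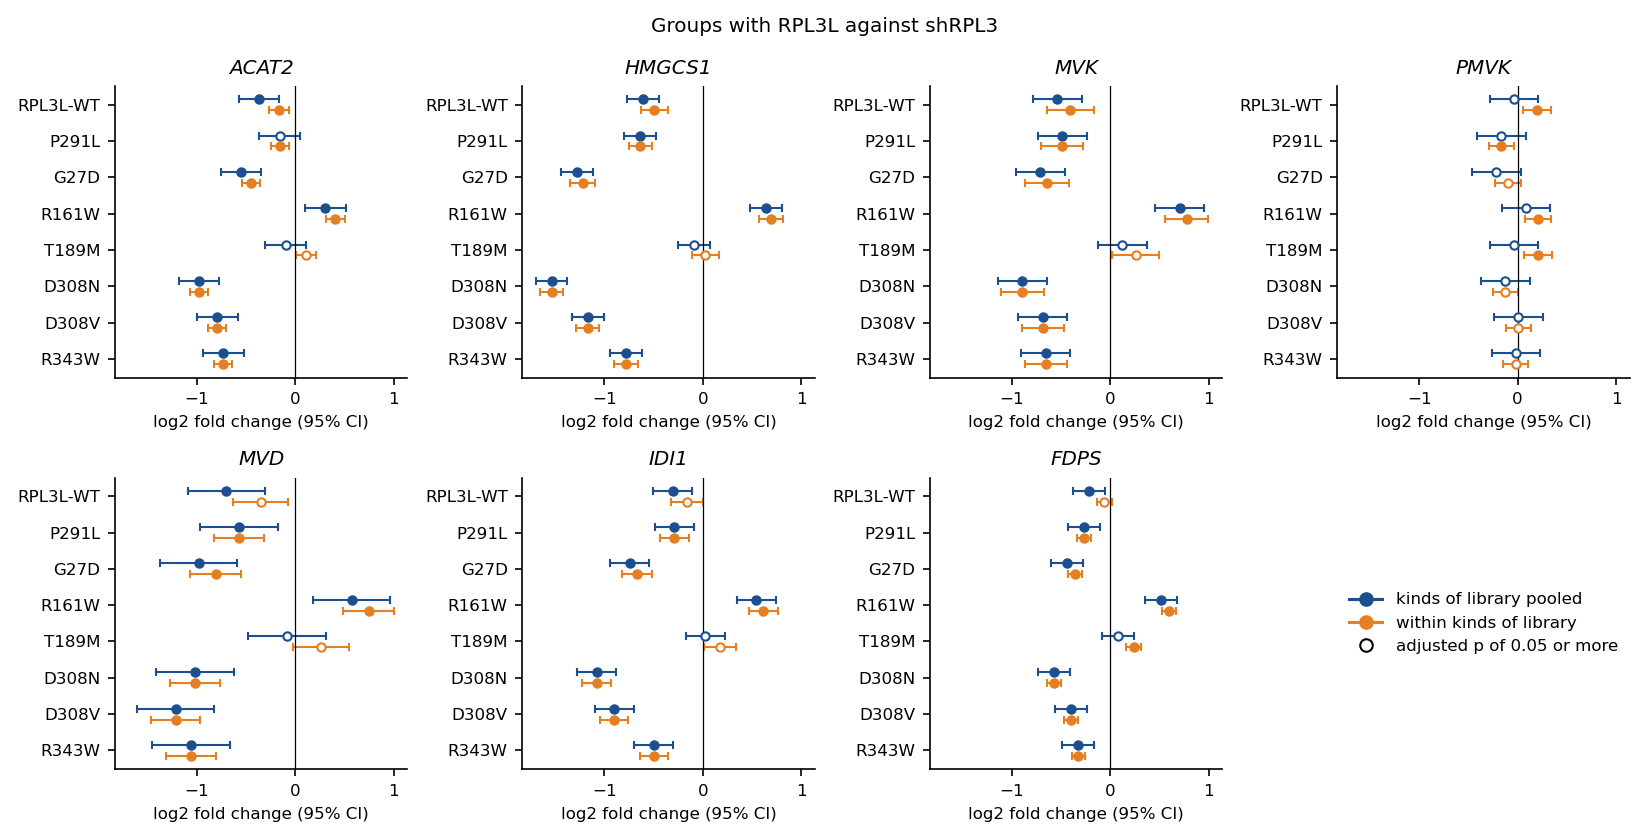
Log2 fold changes (x axis) of the 7 enzymes in the 8 groups with RPL3L against shRPL3, with 95% confidence intervals; blue pools the kinds of library, orange is within kinds, and open circles have an adjusted p of 0.05 or more. For the 6 enzymes other than PMVK, R161W lies right of 0 and D308N, D308V, G27D and R343W lie left of 0 in both fits.

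Set against wild-type RPL3L, the variants spread to both sides, and all 7 comparisons share the RPL3L-WT libraries. R161W was higher for 6 members (12.6% of all genes tested higher, median 0.85 over members and 0.10 over all genes). HMGCS1 (1.24, 95% confidence interval 1.08 to 1.41, adjusted p = 4.52e-10), MVK (1.25) and MVD (1.27) were more than 1 log2 unit higher. Within kinds the same 6 were higher (16.1%). T189M was higher for HMGCS1 (0.52, 95% confidence interval 0.36 to 0.68, adjusted p = 0.000854), MVK (0.66, adjusted p = 0.00488) and FDPS (0.30, adjusted p = 0.0499), with 1.39% of all genes higher. Both groups hold 2 libraries of the second kind and 1 of the first, so the fold changes were the same within kinds, where 6 members passed (7.51%). Without the third RPL3L-WT library 5 passed (4.24%). RPL3 itself was at 1438 ± 334 TPM in R161W and 942 ± 263 TPM in T189M, against 519 ± 134 TPM in RPL3L-WT. In the other variants its means ran from 569.5 TPM in D308V to 730 TPM in R343W. The part of RPL3 in the differences from RPL3L-WT was not tested.

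On the lower side, D308N was below RPL3L-WT for ACAT2, HMGCS1, MVK, IDI1 and FDPS (9.48% of all genes lower), with HMGCS1 at -0.93 (95% confidence interval -1.09 to -0.77, adjusted p = 9.32e-09). D308V was below it for ACAT2, HMGCS1, MVD and IDI1 (9.03%), with IDI1 at -0.60 (95% confidence interval -0.79 to -0.40, adjusted p = 7.32e-05). G27D was lower for HMGCS1 (-0.67, 95% confidence interval -0.84 to -0.51, adjusted p = 1.35e-05) and IDI1 (-0.43, adjusted p = 0.0122), with 1.77% of all genes lower, and without the first G27D library the count was 1 (0.769%). R343W was lower for ACAT2 (-0.36, 95% confidence interval -0.57 to -0.16, adjusted p = 0.00768), with 9.19% of all genes lower. That count was 0 without the third RPL3L-WT library (11.2%) and 2 without the second (6.76%). P291L had 0 members called (1.09% of all genes lower), 1 of the 7 at an unadjusted p under 0.05, with HMGCS1 at -0.03 (95% confidence interval -0.19 to 0.13). Without the third RPL3L-WT library 1 member, ACAT2, was higher, where 23.3% of all genes tested were higher. Within kinds more members passed: 7 in D308N (12.8% of all genes lower), 6 in D308V (12.7%), 6 in G27D (6.02%) and 6 in R343W (12.6%). In P291L the 2 that passed were FDPS (-0.21) and PMVK (-0.36), against 1.16% of all genes. The background thus rose with the members' count in G27D and much less than it in R343W. Of the 3 RPL3L-WT libraries 2 are of the second kind, where all 7 members read lower.

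**Figure D4:**
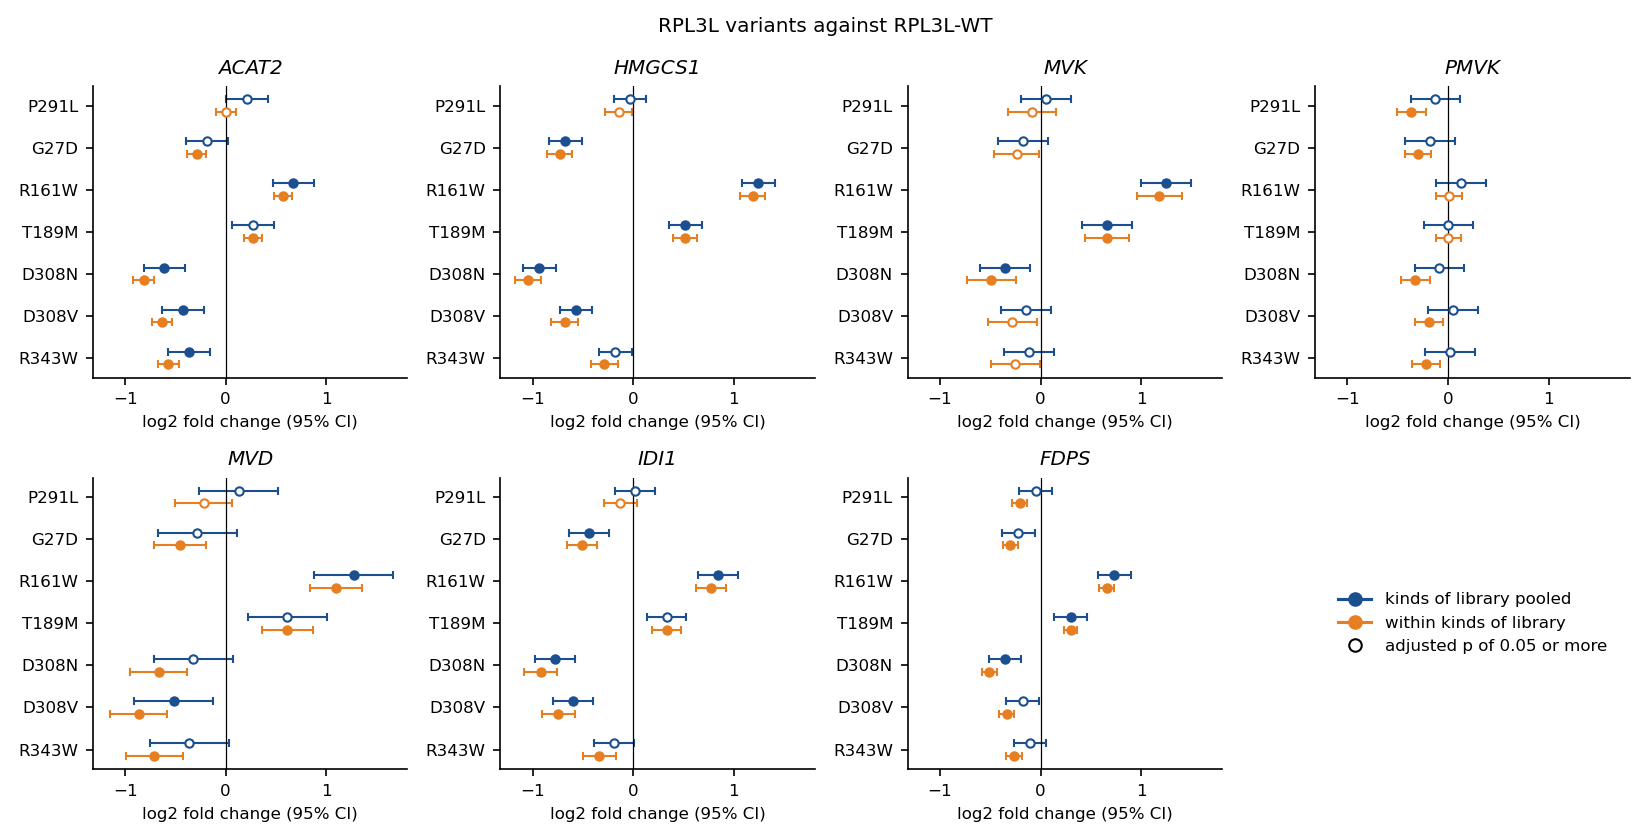
Log2 fold changes (x axis) of the 7 enzymes in the 7 variants against RPL3L-WT, with 95% confidence intervals, colours and open circles as in the plot against shRPL3. For the 6 enzymes other than PMVK, R161W and T189M lie right of 0 and D308N lies left of 0 in both fits.

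D308N and D308V change the same residue of RPL3L to asparagine or to valine. HMGCS1 was lower in D308N (30.5, 28.5 and 32.1 TPM) than in D308V (36.8, 39.9 and 41.7 TPM), with no overlap and a log2 fold change of -0.37 (95% confidence interval -0.53 to -0.21, adjusted p = 0.0139), against 0.866% of all genes tested lower. This call was lost without D308N library 2, D308V library 2 or D308V library 3. The other members had values from -0.21 for MVK to 0.20 for MVD. The intervals of these were -0.46 to 0.04 and -0.20 to 0.59. Within kinds, where the residual spread is smaller, ACAT2 (-0.18, adjusted p = 0.0106) and FDPS (-0.17, adjusted p = 0.00165) were lower as well, against 4.19% of all genes. RPL3L mRNA was higher in D308N, at 5116 ± 143 TPM, than in D308V, at 2854 ± 166 TPM, and its part in the difference was not tested.

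The genes around the members were read from lists chosen by function. Of the 3 genes that supply cytosolic acetyl-CoA, all 3 fell in shRPL3 against shScramble: ACLY, which cleaves citrate, by -0.65, the citrate carrier SLC25A1 by -0.90 and the acetate-activating ACSS2 by -2.03. Downstream, all 12 genes of the sterol branch fell, with a median of -1.58 and a range of -2.19 to -1.18. They include FDFT1, which commits farnesyl diphosphate to sterols (-1.76, 95% confidence interval -1.95 to -1.56, adjusted p = 2.92e-12), and the epoxidase SQLE (-1.45). The 11 genes that use farnesyl diphosphate elsewhere did not share this: 1 fell, 3 rose and 7 were not called, with a median of 0.18. COQ2 of ubiquinone synthesis fell (-0.46, adjusted p = 0.000528). DHDDS and NUS1, the subunits of the dolichol-making prenyltransferase, rose (0.30 and 0.38), as did PDSS1 (0.53). For all lists the background is the 18.0% of genes lower given above, and 17.2% were higher. Among genes with a promoter window, 8 of 9 in the sterol branch and 5 of 10 in the non-sterol list held a CCAAT box in any window. No share of all genes was counted this way, and the 35.0% given for genes tested is a share of windows. Whether the boxes bear on the fold changes was not tested.

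**Figure D5:**
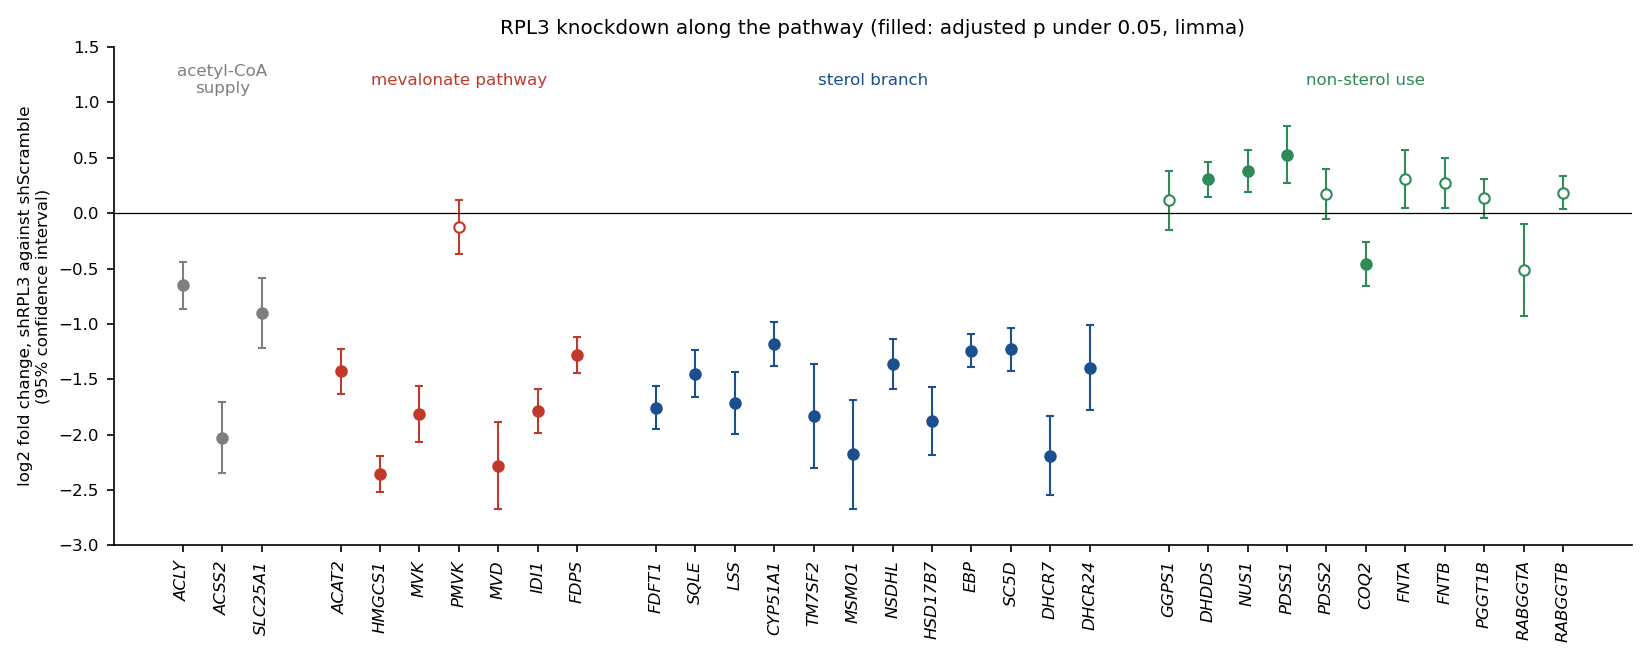
Log2 fold changes in shRPL3 against shScramble with 95% confidence intervals, from acetyl-CoA supply through the 7 mevalonate enzymes to the sterol branch and the non-sterol users of farnesyl diphosphate; filled circles have an adjusted p under 0.05. All genes of the first 3 blocks lie below 0, with PMVK the open circle near 0, and the non-sterol users lie on both sides.

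Of the regulators of the sterol response 4 of 7 fell with the RPL3 hairpin, and the mitochondrial thiolase was not called. ACAT1, that thiolase, had a log2 fold change of -0.24 (95% confidence interval -0.45 to -0.04, adjusted p = 0.0635) in shRPL3 against shScramble. It was not called in RPL3L-WT (-0.13) or T189M (-0.10) either, but was lower than in shScramble in D308N (-0.68), D308V (-0.59), P291L (-0.44), R343W (-0.36), G27D (-0.30) and R161W (-0.28). Within kinds ACAT1 was lower in all 9 groups, by -0.24 (adjusted p = 0.00235) in shRPL3. Among the regulators, SREBF1, SREBF2, INSIG1 and MBTPS1 fell and none rose. SREBF2, which encodes SREBP2, changed by -1.39 (95% confidence interval -1.70 to -1.08, adjusted p = 1.55e-07), and INSIG1, which retains the SREBP escort protein in the endoplasmic reticulum, by -2.35 (95% confidence interval -2.57 to -2.12, adjusted p = 1.23e-13). In R161W against shRPL3 the same 4 were higher, with SREBF2 at 0.54 and INSIG1 at 0.49, and 9 of 12 sterol branch genes were higher (11 within kinds), against 8.36% of all genes (14.3% within kinds). In D308N against shRPL3 those 4 regulators and 11 of 12 sterol branch genes were lower, against 12.4% of all genes. SREBF2 there was at -1.09 (adjusted p = 1.34e-05). Of the 11 non-sterol genes, 6 were lower and 0 higher in R161W against shRPL3, where 16.9% of all genes tested were lower. In each of the other 7 groups against shRPL3, 2 to 8 were lower. The share of all genes lower there ran from 11.1% in D308V to 30.2% in RPL3L-WT. These non-sterol counts pool the kinds.

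The transcripts most like the pathway were looked for over the 24 libraries of the first kind, as Pearson's r between each protein-coding gene with a mean of at least 5 TPM and the mean standardised level of the 7 members. The highest were SHMT1 (0.991), DNASE2 (0.989), FADS2 (0.986), IDH1 (0.985) and NSDHL (0.983). SHMT1 is a cytosolic serine hydroxymethyltransferase, FADS2 a fatty acid desaturase, IDH1 the cytosolic isocitrate dehydrogenase and NSDHL a sterol branch enzyme. Without the 3 shScramble libraries the values were 0.979, 0.971, 0.973, 0.974 and 0.959. The members' own correlations with that mean, of which each is itself a part, were 0.97 to 0.995 except for PMVK at 0.713. RPL3 had 0.824, and 0.656 without shScramble. These libraries share a cell line and a table, so the values only describe the likeness.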

How the data were processed

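Whole-cell polyA RNA of AC16 cells was sequenced in 30 libraries, 10 groups of 3, with TruSeq chemistry per the labels' protocols. Gene-level TPM were deposited by the authors as 1 table, and each library summed to 1000000. bcl2fastq 2.19, bedtools, Bowtie and kallisto are named per the submitters' processing notes, without saying which made the table. The index and genome build behind it are not stated in the sources used. Of 60612 entries, 6 construct sequences were left out. The authors' counts over rRNA regions of 12 nuclear libraries were not used here. All columns were matched to a labelled library (0 were not).

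TPM were taken as log2(TPM + 1). The 14426 genes whose TPM averaged 1 or more entered a single limma fit of the 10 groups (eBayes with robust and trend set, contrasts two-sided). In each comparison p-values were adjusted over all of these genes by Benjamini-Hochberg, with a threshold of 0.05. TPM hold no depth, so precision rests on the spread between libraries. Library kinds were split at the widest gap along the first principal component of 334 pseudogenes. The fit was tested on simulated data.

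Alternatives were a pseudocount of 0.1, no filter, a mean TPM of at least 5, median-ratio scaling, a replicate block, the kind as a term, the first kind only, and leaving out each library. The middle gene's log2 difference against shScramble was -0.18 in RPL3L-WT, -0.13 in G27D, -0.14 in T189M and -0.10 in P291L. Against shRPL3 it was -0.19, -0.14, -0.14 and -0.10 in these groups, and against RPL3L-WT 0.13 in D308N, 0.11 in D308V, 0.13 in R343W and 0.10 in R161W. In the other comparisons it was nearer to 0.

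The 7 genes and the gene lists were chosen with earlier results of these data known. Named beside them are RPL3, RPL3L, up to 4 most abundant genes of each list or those called in it, the genes overlapping a member, and the 5 protein-coding genes whose levels were most like the members. Same-numbered libraries did not deviate together (median r -0.003 over 135 pairs), so numbers were not taken as pairs. Promoters came from RefSeq (GRCh38.p14) and exons from GENCODE 29. limma 3.58.1 ran in R 4.3.3. The other steps used pandas 2.3.3, numpy 2.4.6 and matplotlib 3.10.9 in Python 3.11.15.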

Additional observations from a re-analysis of the deposited data

How the results depend on the processing

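Counts of members past the threshold were computed for 25 comparisons. None of the counts moved by over 1.5 times with a pseudocount of 0.1, with a mean TPM of at least 5 or with the replicate block. Replicate numbers did not pair the libraries (10 of 135 same-number pairs had r over 0.1); with the replicate block the count in shRPL3 against shScramble was 6, and 174 of 175 single gene values kept their direction and side of the threshold. RPL3L-WT against shRPL3 fell from 6 members to 3 with median-ratio scaling and to 1 with the first kind only, and was 3 to 6 with 1 library left out. P291L against shRPL3 fell from 5 to 3 with no filter and to 3 with median-ratio scaling, and was 2 to 4 with 1 library left out. T189M against shRPL3 went from 0 to 2 with median-ratio scaling, 2 with the kind as a term and 1 with the first kind only. Against RPL3L-WT, P291L went from 0 to 2 with the kind as a term (0 to 1 with 1 library left out), and T189M from 3 to 6 (2 to 5). G27D against RPL3L-WT went from 2 to 4 with median-ratio scaling, 6 with the kind as a term and 4 with the first kind only (1 to 2 with 1 library left out). R343W went from 1 to 5, 6 and 5 under those settings (0 to 2). D308N against D308V went from 1 to 2, 3 and 3 (0 to 1), while the genes lower among the 14426 tested went from 125 to 275, 604 and 694. Smaller moves with 1 library left out included R161W against shRPL3, from 6 to as few as 4, and D308V against RPL3L-WT, from 4 to 3. The background moved too, and its shares within kinds are given above. With median-ratio scaling the genes lower against RPL3L-WT, of 14426, went from 1326 to 2329 in R343W and from 256 to 463 in G27D. Against shRPL3 the genes lower in P291L went from 2161 to 1153 with that scaling, and to 1580 of 39832 with no filter. The genes higher in T189M against shRPL3 went from 1215 to 2124 with that scaling. The cause of these moves was not tested.

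Among values past the threshold in at least one of the fits compared, directions that turned were those of PMVK in RPL3L-WT against shRPL3 (0.20) and in T189M against shRPL3 (0.20), PMVK in D308V (-0.19) and R343W (-0.22) against RPL3L-WT, all with the kind as a term, and FDPS in RPL3L-WT against shRPL3 with median-ratio scaling (0.0035). Signs of values past the threshold in neither fit were not counted. Of 70 group levels, 56 moved by less than 1 SD under that scaling. TPM give no depth, so no limit of detection can be stated.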

Other observations

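With group accounted for, the second kind was lower by the fitted difference for every member. Both kinds occur in 4 groups. The second-kind libraries lay below the first-kind libraries in 4 of 4 groups for ACAT2, PMVK, MVD, IDI1 and FDPS, and in 3 of 4 for HMGCS1 and MVK, which overlapped in G27D. Each of these groups has only 1 or 2 libraries of a kind, and the share of all genes separated like this was not counted. In the fit, 6250 of the 14426 genes tested were lower in the second kind past the threshold. The fitted difference was -0.52 for MVD, -0.36 for PMVK and -0.17 for HMGCS1 on the log2(TPM + 1) scale, against a median of -0.15 over all genes tested. PMVK, the member with the smallest differences between groups, thus had the second largest difference between kinds.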
